A study of Mus musculus with 2 samples.

Results

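Ribosomal protein genes were taken as the genes of the deposited peak table whose name begins with Rpl, Rps, Mrpl or Mrps and a number, leaving out the Rps6k kinase genes. They held 29 of the 8226 deposited peaks, assigned to 20 genes. Of these genes, 13 encode proteins of the cytosolic ribosome (20 peaks) and 7 encode proteins of the mitochondrial ribosome (9 peaks). The names, not the heights, chose the members.

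The peaks come from DamID in mouse embryos of the 4- to 8-cell stage, in which a DNA-binding or chromatin protein is fused to Dam, a bacterial enzyme that methylates adenine in GATC sequences. The Dnmt1-Dam library came from embryos injected with a Dnmt1-V5-Dam construct and carries the marks of the maintenance DNA methyltransferase Dnmt1. The Dam-only library came from embryos injected with Dam alone and gives the background of accessible DNA. Embryos of both groups were of BCF1 (C57BL/6 x CBA/CA) origin, from superovulated mothers of 5 weeks, with 50 embryos injected for each construct. Each group is 1 library of pooled embryos, so no value here has a replicate check and no p-value was computed.

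Cytosolic ribosomal protein genes encode the structural proteins of the small (Rps) and large (Rpl) subunits that translate nuclear messenger RNA. They are short, are expressed in nearly every cell, and usually start transcription in a CpG-rich promoter without methylation. Mitochondrial ribosomal protein genes (Mrps and Mrpl) are also nuclear, and their products are imported into mitochondria to translate the few messages of the mitochondrial genome. Many processed pseudogenes of the cytosolic genes are scattered over mammalian genomes. In the RefSeq gene table used for names, 165 protein-coding names and 315 pseudogene names fitted the same pattern.

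Most of these peaks lay away from the genes to which they were assigned. Inside a gene body lay 3 of the 29 peaks, in Rps13, Rps19 and Mrpl37. Another 5 lay outside and within 10 kb, 11 lay between 10 and 100 kb away, and 10 lay more than 100 kb away. Peaks in the proximal promoter class were assigned to Rps21, Rpl10a and Rps13. A peak up to 3 kb before or 1 kb past the start of transcription belongs to that class, so the Rps13 peak counts both as proximal promoter and as inside the body.

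The DNA just upstream of the start sites of these 3 genes, and of Rps16 (described further on), is shown because theirs are the proximal promoter peaks found. Each sequence is the 250 bases before the first start site that RefSeq lists for the gene, in build GRCm38.p6, read 5′ to 3′ on the gene's strand, with capitals marking CG, the dinucleotide in which Dnmt1 maintains methylation.
Rps21 (chr2:180257129-180257378, plus strand): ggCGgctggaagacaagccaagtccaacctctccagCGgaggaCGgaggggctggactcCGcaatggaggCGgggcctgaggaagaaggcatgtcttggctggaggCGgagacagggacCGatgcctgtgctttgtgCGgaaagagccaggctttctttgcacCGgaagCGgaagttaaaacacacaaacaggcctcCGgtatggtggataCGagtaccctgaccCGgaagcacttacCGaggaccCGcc
Rpl10a (chr17:28328221-28328470, plus strand): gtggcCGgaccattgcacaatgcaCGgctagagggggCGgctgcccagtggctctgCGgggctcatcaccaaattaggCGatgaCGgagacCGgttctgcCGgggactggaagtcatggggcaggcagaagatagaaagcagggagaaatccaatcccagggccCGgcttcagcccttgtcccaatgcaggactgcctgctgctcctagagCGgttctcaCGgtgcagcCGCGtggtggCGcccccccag
Rps13 (chr7:116334191-116334440, minus strand): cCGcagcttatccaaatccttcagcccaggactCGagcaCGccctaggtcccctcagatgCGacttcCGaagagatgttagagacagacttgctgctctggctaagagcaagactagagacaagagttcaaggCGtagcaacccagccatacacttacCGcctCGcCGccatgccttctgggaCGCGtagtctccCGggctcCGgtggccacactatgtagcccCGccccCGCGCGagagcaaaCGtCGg
Rps16 (chr7:28350439-28350688, plus strand): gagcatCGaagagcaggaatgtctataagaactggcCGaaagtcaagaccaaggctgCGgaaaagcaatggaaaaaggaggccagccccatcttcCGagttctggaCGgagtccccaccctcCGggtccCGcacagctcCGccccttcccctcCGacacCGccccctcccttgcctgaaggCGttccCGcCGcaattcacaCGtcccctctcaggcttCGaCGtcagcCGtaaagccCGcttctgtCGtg

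These windows held 15 CG in Rps21, 14 in Rpl10a, 19 in Rps13 and 19 in Rps16. The window of a further RefSeq start site, not printed, held 21 CG in Rpl10a and 15 in Rps21. The median over the 154 windows of 136 ribosomal protein genes in the sequence table was 16.5 CG (interquartile range 11 to 21), and over all 32851 windows it was 6 (2 to 16). GATC, the palindromic sequence in which Dam methylates adenine, was in none of the 6 windows that the table lists for these 4 genes. It was in 33.1% of ribosomal protein windows and in 41.9% of all windows. The windows of Rps21 overlap, as do those of Rpl10a, so the 6 are not separate sequences, and the difference was not tested. By the distances in the peak table, which uses build mm9, none of the peaks lay within 250 bases upstream of the start site given there. Positions were not carried over between builds, and RefSeq lists more than 1 start site for Rps21 and Rpl10a. Whether the Rps21 peak falls inside its printed window was therefore not determined. The peak assigned to Rps21 was 283 bp upstream of the start site and that of Rpl10a 1253 bp upstream, while the Rps13 peak was 967 bp downstream.

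The table lists, for each peak, 1 height in each library, as whole numbers whose scaling is not given in the sources used here. Depth is therefore unknown, and heights are given without a counting interval. Every listed peak has a Dnmt1-Dam height of at least 7, at least 6 above and at least 2 times the Dam-only height. A higher Dnmt1-Dam height is thus a condition of the list and not a result about these genes.

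The small-subunit genes Rps21, Rps13 and Rps19 had the cytosolic peaks in or closest to a small-subunit gene. Rps21, the shortest of the 20 gene bodies at 1.07 kb, had a peak on chromosome 2 at 179991801 with heights of 7 in Dnmt1-Dam and 1 in Dam-only, outside any named repeat. Rps13 had a peak of 7 in Dnmt1-Dam and 1 in Dam-only on chromosome 7 at 123476681, in a sequence annotated as snRNA repeat. That repeat class is named at 2 of the 8226 peaks. In the gene table the small nucleolar RNA gene Snord14a lies within Rps13. Rps19, a gene mutated in human Diamond-Blackfan anemia, had a peak of 9 in Dnmt1-Dam and 1 in Dam-only at position 25673261 of the same chromosome, 3.53 kb downstream of its start site and free of repeats. The Dnmt1-Dam heights at Rps21 and Rps13 were at the floor of the list, and that at Rps19 equalled the median over all peaks.

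The other small-subunit genes found by name had distant peaks only. Rps14, which lies in the region deleted in the human 5q- syndrome, had a peak of 9 in Dnmt1-Dam and 1 in Dam-only 24.5 kb upstream, in a SINE and the shelf of a CpG island. Rps3a (Rps3a1 in the gene table) had a peak of 10 in Dnmt1-Dam and 1 in Dam-only 35.2 kb upstream. Rps29, which encodes a zinc-binding protein of the small subunit, had 3 peaks, all on the downstream side. The nearest, 17.7 kb beyond the gene, had heights of 8 in Dnmt1-Dam and 1 in Dam-only and lay in a repeat of the class Other, and those 323 and 653 kb beyond it each had 7 in Dnmt1-Dam and 1 in Dam-only. Rps24 had a pair of peaks 149 and 427 kb downstream, each with 7 in Dnmt1-Dam and 1 in Dam-only, and the nearer one lay in a CpG island shelf. The 10 small-subunit peaks found by name, which leave out those of Rps16, ranged in Dnmt1-Dam height from 7 to 10, and the Dam-only height was 1 at each.

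The tallest peak of the cytosolic set was assigned to a large-subunit gene. Rpl37, a zinc-binding protein of the large subunit, had 3 peaks on chromosome 15. The tallest, at 4901291, reached 62 in Dnmt1-Dam and 4 in Dam-only, which shares rank 4 among all 8226 peaks. It lay 165 kb upstream of Rpl37, in no named repeat, and its nearest neighbor in the list was 123 kb away. The other two, at 5069971 and 5070081, lay 0.831 and 0.941 kb beyond the 3′ end of the gene, 110 bp apart, each in a SINE and each with heights of 9 in Dnmt1-Dam and 1 in Dam-only. At 110 bp apart this pair need not be separate sites. The tall peak is therefore Rpl37's by assignment alone, and the peaks beside the gene were of median height.

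Rpl27a had the only distal promoter peak, 7.54 kb upstream on chromosome 7 at 116655171, with 15 in Dnmt1-Dam and 1 in Dam-only, at a position with 2 LTR annotations. Its Dnmt1-Dam height was the tallest of the 8 peaks in or within 10 kb of a gene body. Rpl10a had a peak of 7 in Dnmt1-Dam and 1 in Dam-only at its promoter (chromosome 17, 28464291), in LTR and SINE sequence. It had another of 9 in Dnmt1-Dam and 2 in Dam-only 21.7 kb upstream. Rpl24, the gene altered in the mouse Belly spot and tail mutant, had a peak of 8 in Dnmt1-Dam and 1 in Dam-only in a SINE 14.5 kb upstream. Rpl34 had 8 in Dnmt1-Dam and 2 in Dam-only at 99.6 kb upstream. Rpl14 had a peak of 8 in Dnmt1-Dam and 2 in Dam-only in a SINE 103 kb downstream, and one of 12 in Dnmt1-Dam and 1 in Dam-only in LTR sequence 122 kb downstream.

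**Figure D1:**
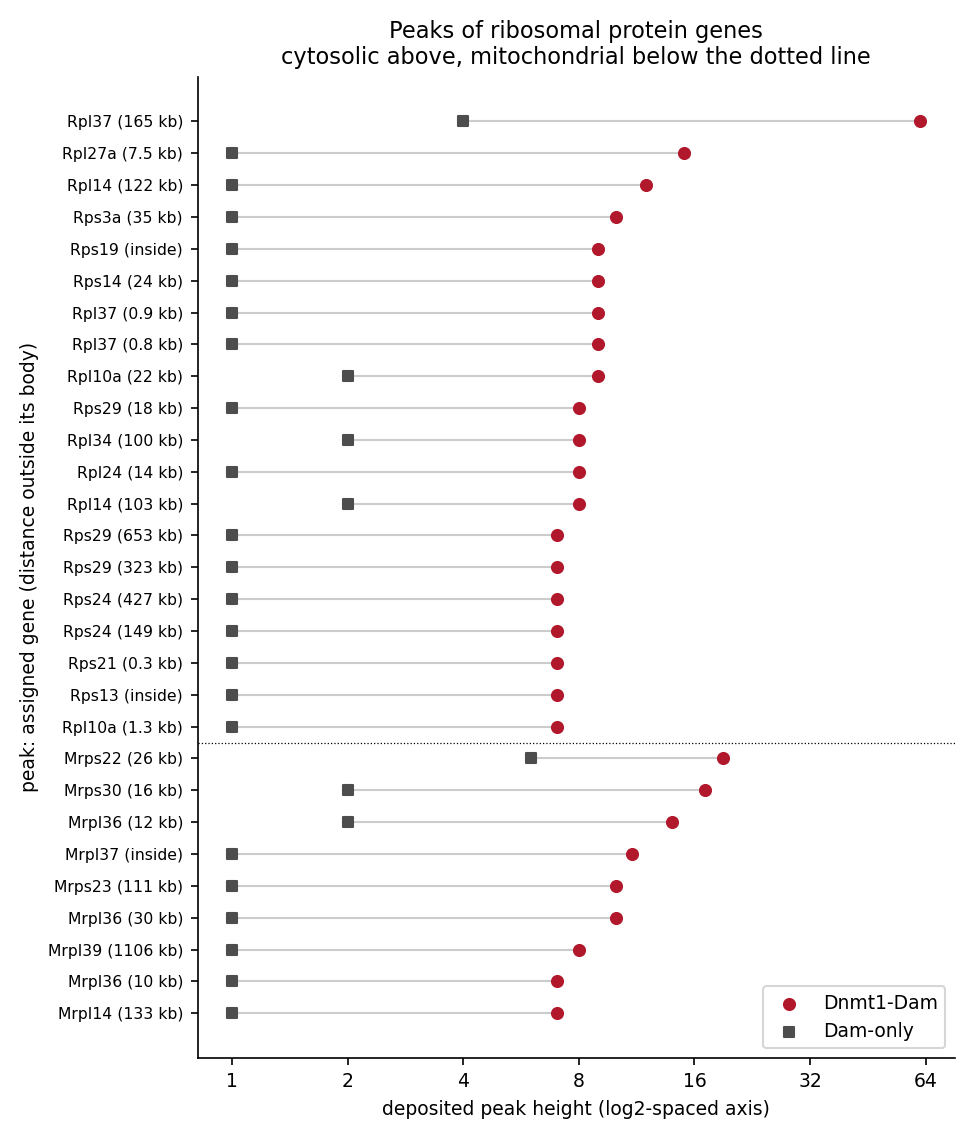
Heights of the 29 peaks in the Dnmt1-Dam library (red circles) and the Dam-only library (grey squares), on a log2-spaced axis, with 1 row per peak labelled by its gene and its distance outside the gene body. The Rpl37 peak at 62 stands apart, and the other 28 Dnmt1-Dam heights lie between 7 and 19.

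Of the mitochondrial ribosomal protein genes, Mrpl37 alone had a peak in or within 10 kb of its body. That peak, on chromosome 4 at 106735281, had heights of 11 in Dnmt1-Dam and 1 in Dam-only and lay in a DNA transposon 4.17 kb downstream of the start site. Mrpl36 had 3 peaks downstream within 30 kb on chromosome 13. Their heights were 7 in Dnmt1-Dam and 1 in Dam-only at 10.5 kb beyond the gene, in an LTR element, 14 in Dnmt1-Dam and 2 in Dam-only at 12.2 kb, and 10 in Dnmt1-Dam and 1 in Dam-only at 29.8 kb, in a SINE. The first of these was just past the 10 kb limit used here for near. Among the genes named for the small subunit, Mrps22 had 19 in Dnmt1-Dam and 6 in Dam-only at 26.5 kb upstream, and Mrps30 had 17 in Dnmt1-Dam and 2 in Dam-only at 15.8 kb beyond its 3′ end. The Dam-only height of 6 at Mrps22 was the highest among the 29 peaks, so its ratio of 3.17 was their lowest. Mrps23 had 10 in Dnmt1-Dam and 1 in Dam-only at 111 kb downstream. Mrpl14 had 7 in Dnmt1-Dam and 1 in Dam-only in a LINE 133 kb downstream, and Mrpl39 had 8 in Dnmt1-Dam and 1 in Dam-only in LINE sequence 1106 kb downstream, the longest distance in the set.

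**Figure D2:**
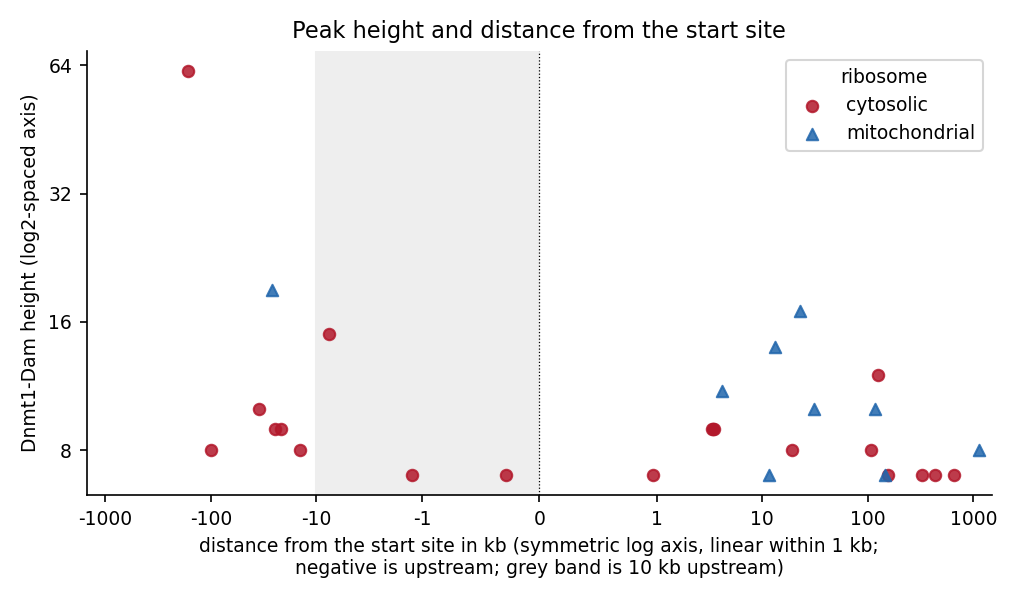
Dnmt1-Dam height (log2-spaced axis) of the 29 peaks against their signed distance from the start site of the assigned gene in kb (symmetric log axis, linear within 1 kb), for cytosolic (circles) and mitochondrial (triangles) ribosomal protein genes. The grey band marks 10 kb upstream and holds 3 peaks, and 19 of the 29 peaks lie downstream of the start site.

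A smaller share of these peaks than of the whole list, which includes them, lay inside a gene body. It was 3 of 29, or 10.3% (exact Clopper-Pearson 95% interval 2.19 to 27.4, counting error only), while 3537 of all 8226 peaks (43.0%, 41.9 to 44.1) were inside the body of the assigned gene. More than 10 kb outside the body lay 21 of 29 (72.4%, 52.8 to 87.3), against 3905 of 8226 (47.5%, 46.4 to 48.6). The median distance outside the body was 24.5 kb for ribosomal protein genes and 6.92 kb over all peaks. These intervals do not overlap, but peaks that share a gene are not independent, and a test over samples cannot be had from 1 library per group. At a Dnmt1-Dam height of 9 or more, 66.7% of 15 peaks (38.4 to 88.2) lay more than 10 kb outside. That interval contains the 47.5% over all peaks of any height. Inside the body, the share at that height was 13.3% (1.66 to 40.5), an interval still below the 43.0% over all peaks.

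Gene length moved with this difference, and its part in it was not tested. The 20 bodies had a median length of 4.27 kb (1.07 to 16.9) and add up to 112 kb, whereas the median over all 4903 transcripts with a peak was 41.9 kb. Set beside the 1885 peaks of other genes no longer than 16.9 kb, a comparison chosen after the values had been seen, the shares differed less. Inside the body lay 10.3% of ribosomal protein peaks and 16.6% of the peaks of the other short genes (15.0 to 18.4). More than 10 kb outside lay 72.4% of ribosomal protein peaks and 63.2% of the peaks of the other short genes (61.0 to 65.4). Both values for the other short genes lie inside the interval for ribosomal protein genes. The bodies of the other short genes had a median length of 7.20 kb, so they were capped but not matched on length. Cytosolic bodies, with a median of 3.17 kb, were shorter than mitochondrial ones, with 11.0 kb. In or within 10 kb of a body lay 7 of 20 cytosolic peaks (35.0%, 15.4 to 59.2) and 1 of 9 mitochondrial peaks (11.1%, 0.281 to 48.2), shares whose intervals overlap.

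**Figure D3:**
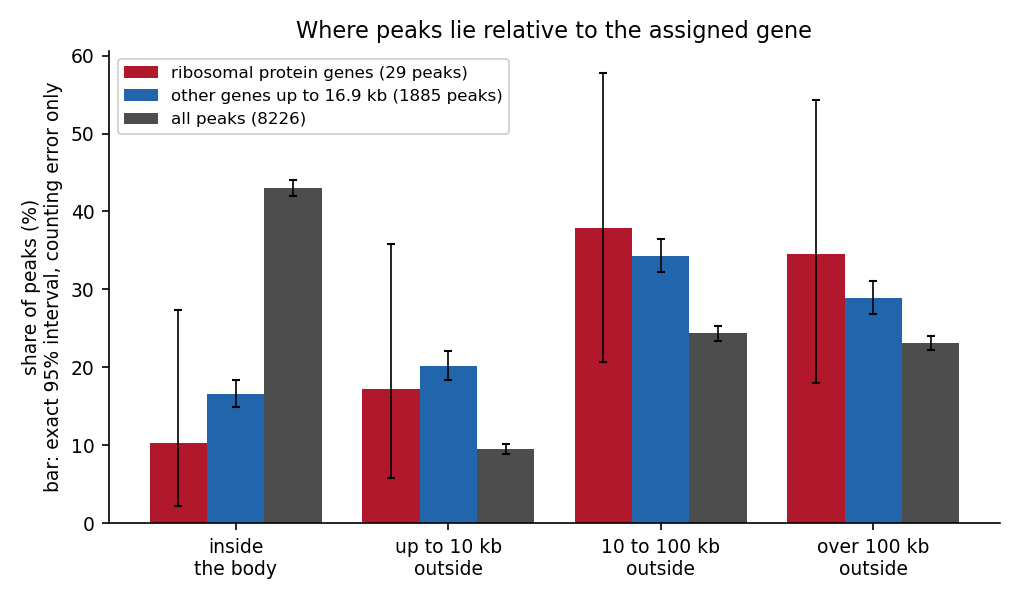
Share of peaks (%) by position relative to the assigned gene body, for ribosomal protein genes (red, 29 peaks), other genes up to 16.9 kb long (blue, 1885 peaks) and all peaks (grey, 8226), with exact 95% intervals. Inside the body the share is 10.3% for ribosomal protein genes, 16.6% for the other short genes and 43.0% for all peaks.

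For each of the 29 peaks, the assigned gene's start site was the closest among the genes in the table. No peak lay inside the body of another gene listed there. The authors' assignment of peaks to genes may fix both in advance, and neither was counted over all peaks. Genes without a peak are not in the table, so they may lie closer. Within 100 kb of the 20 bodies there were 33 deposited peaks, of which 19 were assigned to the ribosomal protein gene itself. Within 10 kb there were 8, all of them assigned to it, which the assignment may also fix in advance. No other peak lay within 100 kb of 13 of the 29 peaks. The same count was not taken over all peaks, so whether these peaks are unusually isolated was not tested.

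Repeats were named at 15 of the 29 peaks (51.7%, 32.5 to 70.6), against 3250 of all 8226 (39.5%, 38.5 to 40.6), a value inside the wider interval. SINEs were named at 7 peaks (24.1%, 10.3 to 43.5), against 17.1% of all peaks, LTR elements at 4 (13.8%, 3.89 to 31.7), against 10.8%, and LINEs at 2 (6.90%, 0.846 to 22.8), against 8.18%. Each of these shares over all peaks lies inside the interval for the ribosomal protein genes, so no difference in these 3 classes or in repeats as a whole was detectable with 29 peaks. The snRNA repeat class was named at 1 of the 29, the Rps13 peak (3.45%, 0.0873 to 17.8), against 0.0243% of all peaks, a difference that rests on a single peak. By position, 6 of the 8 peaks in or within 10 kb of a gene had a repeat, as did 9 of the 21 farther out. Over all peaks the shares were 35.5% in or within 10 kb and 43.9% farther out, and with 8 peaks the interval for ribosomal protein genes in or near the body is wide (34.9 to 96.8%). SINEs were named at 6 of 20 cytosolic peaks (30.0%, 11.9 to 54.3) and 1 of 9 mitochondrial peaks (11.1%, 0.281 to 48.2). LINEs were named at 0 of 20 cytosolic peaks (interval up to 16.8%) and 2 of 9 mitochondrial peaks (22.2%, interval from 2.81%). The intervals overlap for both classes, so no difference between the ribosomes was detectable. The cytosolic SINE peaks include the Rpl37 pair, which need not be separate sites. That pair is also among the 6 peaks with a repeat in or within 10 kb of a gene. The file names repeat classes only, so B1 or B2 elements and single LTR families were not separated. No peak lay in a CpG island or its shore and 2 lay in shelves (6.90%, 0.846 to 22.8), where 6.61% of all peaks had any island context.

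**Figure D4:**
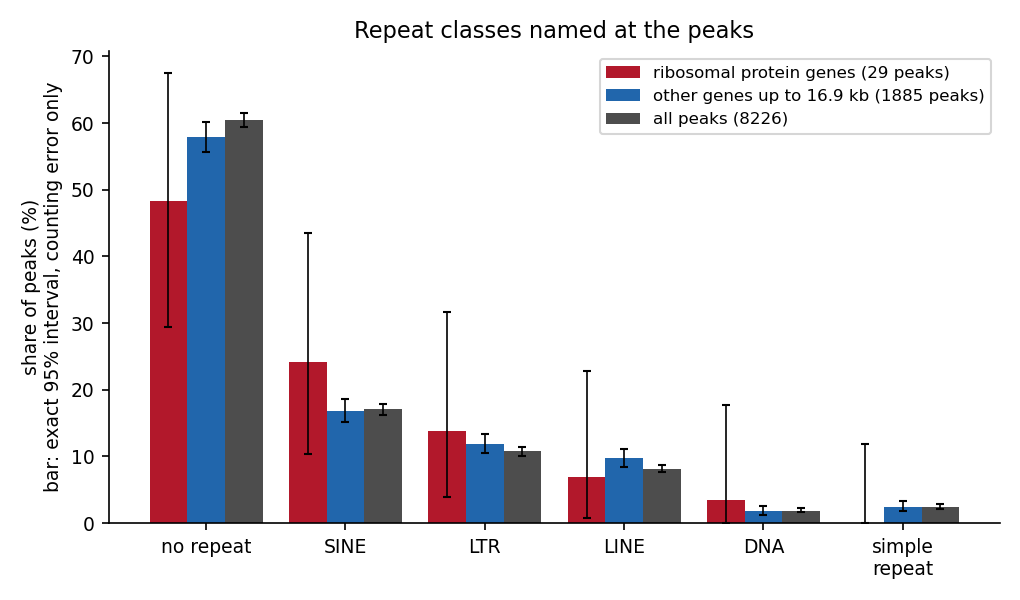
Share of peaks (%) at which each repeat class is named, for ribosomal protein genes (red), other genes up to 16.9 kb (blue) and all peaks (grey), with exact 95% intervals. The red interval contains the value of the grey bar in each of the 6 classes shown, for example 29.4 to 67.5 against 60.5% with no repeat.

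Heights were near those of the whole list. The median Dnmt1-Dam height was 9 (interquartile range 7 to 10), against 9 (7 to 11) over all peaks, and the median Dam-only height was 1 in both. Of the 29 peaks, 9 were at 7 (31.0%, against 26.8% of all peaks) and 4 were at 15 or more (13.8%, 3.89 to 31.7, against 8.66%), namely those of Rpl37, Mrps22, Mrps30 and Rpl27a. The Dnmt1-Dam height was at least 8 times the Dam-only height at 15 of the 29 peaks (51.7%), where 50.2% of all peaks pass that ratio. The Dam-only height was 1 at 22 of the 29 (75.9%), against 75.8% of all peaks. After scaling the heights to equal sums over the list, with a pseudocount of 1, the median log2 ratio of Dnmt1-Dam to Dam-only was 0.13 in both sets.

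Counted over genes, 20 of the 165 protein-coding genes with such names in the gene table had an assigned peak (12.1%, 7.56 to 18.1), against 22.7% of all 21035 genes with a curated messenger RNA. With a peak inside the body or within 10 kb there were 7 of 165, or 4.24% (1.72 to 8.55), against 14.7%. With a peak inside the body there were 3, or 1.82% (0.377 to 5.22), against 11.7%. All 3 intervals lie below the share over all genes, which were not matched on length. Genes named for the small cytosolic subunit had a peak at 7 of 34, and those named for the large one at 6 of 53. For the mitochondrial ribosome it was 3 of 29 for the small subunit and 4 of 49 for the large. The 165 include 14 cytosolic names that a narrower list of structural names leaves out. On that list 20 of 151 genes had a peak (13.2%, 8.28 to 19.7). The 145 other genes of the 165 had no assigned peak under such a name, and 1 of them, Rps16, had a pair under another. The counts over all genes include Rps16. With it, 21 of the 165 had an assigned peak (12.7%, 8.05 to 18.8), and 8 had one inside the body or within 10 kb.

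Rps16 is entered in the peak table under a locus number, as similar to Rps16 protein, and was found through its transcript accession after the values had been seen. Its peaks lay 1.57 and 1.46 kb upstream of the start site, at 29134141 and 29134251 on chromosome 7, 110 bp apart. The heights were 15 in Dnmt1-Dam and 1 in Dam-only at the first, outside repeats, and 19 in Dnmt1-Dam and 1 in Dam-only at the second, in a SINE. Both exceeded the promoter peaks of Rps21, Rpl10a and Rps13, which were all at 7 in Dnmt1-Dam and 1 in Dam-only. With Rps16 counted there were 31 peaks in 21 genes, 10 of the 31 peaks in or within 10 kb of a body, and 5 in the proximal promoter class (16.1%, 5.45 to 33.7), against 2.66% of all peaks and 5.46% of peaks of other short genes. The Rps16 pair, like that of Rpl37, need not be separate sites, and with 1 peak kept per run of peaks up to 1 kb apart the share was 4 of 29 (13.8%, 3.89 to 31.7). That interval contains the 5.46% of other short genes but not the 2.66% of all peaks, and runs were not merged for either of these. Without Rps16 the proximal promoter share was 3 of 29 (10.3%, 2.19 to 27.4), an interval that contains both 2.66% and 5.46%.

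Other genes of the translation machinery were counted in the same way. Of the cytosolic ribosomal proteins whose names escape the pattern, Rpsa, Rplp0, Rplp1, Rplp2 and Fau had a peak in 0 of 5, for which the interval reaches 52.2%. Cytosolic translation factors had a peak in 6 of 28 genes (21.4%, 8.30 to 41.0). Eif3a, a scaffold subunit of an initiation factor, had 19 in Dnmt1-Dam and 2 in Dam-only 8.95 kb upstream, and Eif5b, the subunit-joining factor, had 11 in Dnmt1-Dam and 1 in Dam-only in a SINE of its body. Eif2s1 and Eif4g2 each had 8 in Dnmt1-Dam and 2 in Dam-only in an LTR element of the body, and Eif4e, the cap-binding protein, had 8 in Dnmt1-Dam and 1 in Dam-only at 54.6 kb downstream of its body. Genes of ribosome biogenesis and RNA polymerase I had a peak in 4 of 36 (11.1%, 3.11 to 26.1), namely Bop1, a ribosomal RNA processing gene (10 in Dnmt1-Dam and 2 in Dam-only), Mdn1, an ATPase gene of large-subunit assembly (9 in Dnmt1-Dam and 1 in Dam-only), Bms1, a GTPase gene of small-subunit assembly (8 in Dnmt1-Dam and 1 in Dam-only), and the nucleolar methyltransferase gene Fbl (7 in Dnmt1-Dam and 1 in Dam-only).

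Other genes of mitochondrial translation had a peak in 7 of 26 (26.9%, 11.6 to 47.8). The highest were at Lars2, a mitochondrial leucyl-tRNA synthetase gene (10 in Dnmt1-Dam and 2 in Dam-only), the GTPase gene Mtg1 (10 in Dnmt1-Dam and 1 in Dam-only), the initiation factor gene Mtif3 (10 in Dnmt1-Dam and 4 in Dam-only) and Dap3, which encodes a mitochondrial ribosomal protein under another name (8 in Dnmt1-Dam and 2 in Dam-only). Of the genes with a peak, 4 of 6 cytosolic translation factors, 3 of 4 biogenesis genes and 6 of 7 mitochondrial translation genes had one inside the body, where 3 of the 20 ribosomal protein genes with a peak (15.0%, 3.21 to 37.9) and 51.4% of all genes with a peak did. These differences were not tested. All 3 list intervals contain the share of 22.7% over all genes, and the lists were not matched on length.

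**Figure D5:**
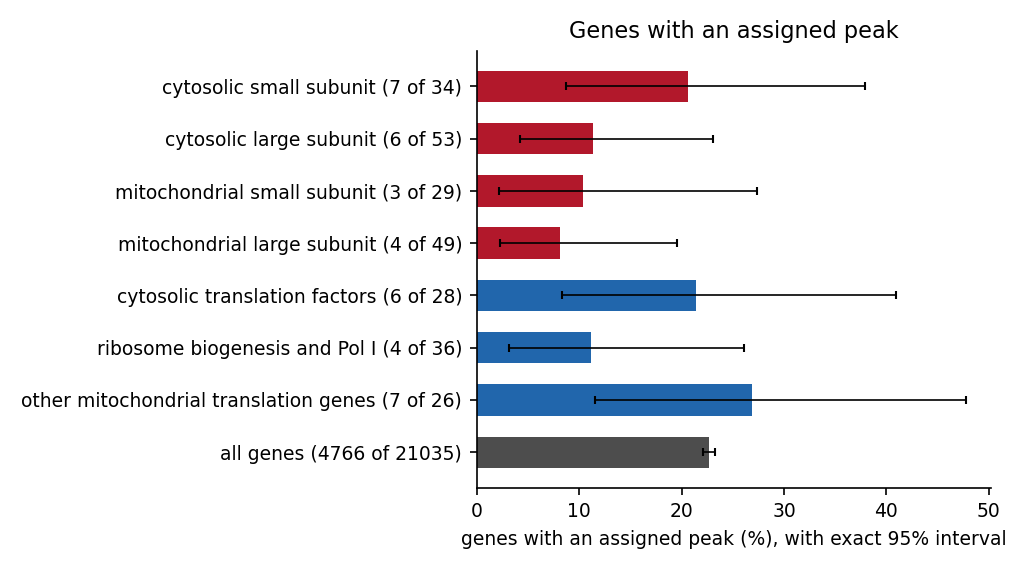
Share of genes (%) with an assigned peak, with exact 95% intervals. Shown are the 4 groups of ribosomal protein genes, formed by name (red), 3 lists of other translation genes (blue) and all genes with a curated messenger RNA (grey). The red bars run from 8.16% to 20.6% and the grey bar is at 22.7%.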

How the data were processed

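Genomic DNA of 50 embryos per construct was adapter-ligated, amplified with 15 PCR cycles and size-selected around 300 bp, per the labels' protocols. CASAVA and BWA were used with build mm9, per the submitters' processing notes. The sources used here do not give how peaks were called or how multiply mapped reads were handled. The authors' deposited table gives each peak as 1 position on a 10 bp grid with a signal height per library, its location class, repeat classes and assigned gene, all the authors'. Distances were computed from the deposited gene start, end and strand, and near was set at 10 kb. Members were found by the deposited gene name, and all 20 genes matched the RefSeq gene table of GRCm38.p6, which served for names and for genes without a peak. Promoter sequences are RefSeq's, of GRCm38.p6. Shares have exact Clopper-Pearson 95% intervals from scipy 1.17.1, taken over peaks or genes. They cover counting error only, since each group is 1 library and peaks that share a gene are not independent. PCR reads without molecular identifiers are not independent molecules either. A log2 ratio was taken after bringing the heights to equal sums over the list (81171 for Dnmt1-Dam and 12018 for Dam-only) and adding 1. The distance and run-merging steps were tested on simulated data. Every gene the name rule finds is named, and of each translation list the 4 genes with the highest peak, ties included. The members and lists were chosen with earlier results of these data known. Alternatives were stricter heights, merged runs, other limits for near, other pseudocounts and other name rules. In the translation lists, 1 gene was removed and is not reported here.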

Additional observations from a re-analysis of the deposited data

How the results depend on the processing

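Of 52 recalculated values for 13 results, 42 stayed within 1.5 times the main count, the main interval or, for medians, the interquartile range over peaks, and 10 did not. At a Dnmt1-Dam height of 9 or more, 15 peaks in 12 genes remained of the 29 in 20, and at 15 or more, 4 peaks in 4 genes, since fewer peaks pass. With near widened to 50 kb, 51.7% of the peaks were outside and near a body, and 37.9% lay beyond it, by definition. The share of genes with a peak, 12.1%, became 4.24% when the peak had to be inside the body or within 10 kb and 1.82% when it had to be inside. The median scaled log2 ratio of 0.13 became 0.024 with a pseudocount of 10 and 2.17 without scaling, by construction. Merging runs of 1 kb left 28 peaks, as the Rpl37 pair became 1, and blank gene names added none. Counting Rps16, the short-gene comparison, leaving out the tall Rpl37 peak (median height 8.5), merged runs for the median height and the Rps16 promoter pair, and merged runs or stricter heights for the island context were chosen after seeing the data. No paired analysis was possible because each group is 1 library. The unknown depth and the 29 peaks limit precision: the interval of the share inside the body spans 2.19 to 27.4%.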
